A study of Mus musculus with 8 samples.

Results

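The miR-30 family was described in the prefrontal cortex of mice lacking Fkbp5 and of wild-type mice, through 10 mature miRNAs chosen by name: mmu-miR-30a-5p, mmu-miR-30b-5p, mmu-miR-30c-5p, mmu-miR-30d-5p and mmu-miR-30e-5p, and the 3p arms mmu-miR-30a-3p, mmu-miR-30b-3p, mmu-miR-30c-2-3p, mmu-miR-30d-3p and mmu-miR-30e-3p. The species prefix is left out below. These are 10 of the 1915 mature miRNA names in the deposited data, and all 10 were present. Small RNA was sequenced from 4 Fkbp5 knockout libraries (replicates 1, 2, 4 and 5) and 4 wild-type libraries (replicates 1, 2, 3 and 4), all from C57BL/6 animals at 12 weeks of age. The protein made from Fkbp5 is an Hsp90 co-chaperone and dampens hormone binding by the glucocorticoid receptor; small RNA sequencing does not read its transcript, so the genotype labels are not checked by the data. The labels name the knockout by genotype alone and give no allele, no treatment, and no statement on whether each library is its own animal, and p-values therefore cover only the spread among these libraries, which may be technical.

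MicroRNAs are cut from hairpins whose strands give a 5p and a 3p product. One of them, the guide, is usually kept in an Argonaute protein and finds messenger RNAs mainly through its seed, bases 2 to 8. The 5p arms of the miR-30 family are its usual guides, share one seed, and occur in many tissues, including neurons and glia. In human cells miR-30a-5p is known to lower Beclin 1, a protein that starts autophagy, and it has been linked to brain-derived neurotrophic factor, a growth factor of cortical neurons.

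The mature sequences that set the family's seed groups are shown first, 5′ to 3′, with the seed in capitals. RefSeq (build GRCm38.p6) gave a sequence for 6 of the 10 members.
miR-30a-5p: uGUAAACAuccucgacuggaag
miR-30e-5p: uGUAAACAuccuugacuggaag
miR-30c-5p: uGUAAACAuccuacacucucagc
miR-384-5p: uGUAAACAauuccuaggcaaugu
miR-30a-3p: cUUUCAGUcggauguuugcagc
miR-30e-3p: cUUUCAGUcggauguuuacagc
miR-30c-2-3p: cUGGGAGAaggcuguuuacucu
miR-30c-1-3p: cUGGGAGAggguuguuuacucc
The 5p seed GUAAACA occurred in 4 of 1679 mature names in that table, a share of 0.238%. That table lacks the arms of miR-30b and miR-30d, so the count leaves them out. The one name outside the family was miR-384-5p, which in rat hippocampus is known for a part in lasting synaptic potentiation. The 3p arms with a sequence fell into separate seed groups. The passenger strands of miR-30a and miR-30e share UUUCAGU and those of the miR-30c hairpins share UGGGAGA. The seeds of miR-30b-3p and miR-30d-3p were not examined. The seed UGGGAGA was also held by miR-6958-5p, whose rescaled value was at most 1.19 in any library. miR-30c-1-3p is the product of the other miR-30c hairpin and is not among the 10.

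The near-identity of some members limits how firmly their levels can be told apart. Counted from the 5′ end, miR-30a-5p and miR-30e-5p differ by 1 substitution, C13U (miR-30a-5p first), and miR-30a-3p and miR-30e-3p by 1, G18A (miR-30a-3p first). The number of mismatches allowed in alignment is not given in the sources used here, so reads of these pairs may have been shared. The arms of miR-30b and miR-30d had no sequence here, so their likeness to other members, and any sharing of their reads, was not examined. miR-30a-5p and miR-30c-5p differ at 5 of 22 positions, beginning with C13A, after 12 shared bases. miR-384-5p shares 8 bases with miR-30a-5p at the 5′ end and differs at 10 of the 22 positions.

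The family is encoded in 3 pairs of hairpins (GRCm38 coordinates). The hairpins are shown for the loci whose arms the results compare, with the mature arms in capitals.
Mir30a: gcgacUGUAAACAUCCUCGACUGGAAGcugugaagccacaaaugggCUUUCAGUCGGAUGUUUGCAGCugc
Mir30c-2: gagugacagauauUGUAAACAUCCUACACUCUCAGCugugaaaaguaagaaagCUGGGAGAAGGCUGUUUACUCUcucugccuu
Mir30c-1: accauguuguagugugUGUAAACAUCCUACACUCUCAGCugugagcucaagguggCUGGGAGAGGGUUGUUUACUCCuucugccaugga
Mir30e: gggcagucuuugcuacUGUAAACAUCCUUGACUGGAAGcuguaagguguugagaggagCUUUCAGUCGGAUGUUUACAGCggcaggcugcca
Mir30a lies at chr1:23272269-23272339 on the plus strand, outside any annotated gene, and Mir30c-2 at chr1:23291701-23291784, overlapping an exon of the long non-coding RNA Gm27028, with 19361 bases between them. Mir30c-1 (chr4:120769534-120769622) and Mir30e (chr4:120772606-120772697) lie 2983 bases apart on the minus strand, both in introns of Nfyc, which encodes a subunit of the transcription factor NF-Y. Mir30b (chr15:68337415-68337510) overlaps an exon of the non-coding transcript Gm26621, and Mir30d (chr15:68341208-68341289) an exon of the long non-coding RNA Gm20732, 3697 bases apart on the minus strand. The Mir30c-1 and Mir30c-2 hairpins give the same miR-30c-5p, whose value is therefore the sum of both loci. Mir30f is annotated on the opposite strand of Mir30e, and miR-30f had deposited values of at most 3.

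Library totals of the deposited values ran from 17.7 to 19.8 in knockout and from 16.2 to 21.6 in wild type, in units of 1000000. The deposited values are called normalized counts by their headers. They were divided by a factor per library (0.838 to 1.21), and all levels below are these rescaled values. The 5 neuron markers examined, miR-124-3p, miR-9-5p, miR-128-3p, miR-138-5p and miR-137-3p, held 35.0% to 43.1% of all values, with 0 of them absent, and no 2 libraries held identical values.

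The 10 members together made up 3.40 ± 0.259% of all values in knockout and 3.46 ± 0.524% in wild type (SD, n = 4 each). The share was 3.48%, 3.03%, 3.46% and 3.63% in knockout replicates 1, 2, 4 and 5, and 3.36%, 3.68%, 4.02% and 2.79% in wild-type replicates 1 to 4. Both the highest and the lowest share were in wild type, and the knockout libraries lay between them. The 3p arms were a small part of the family, with 2.21 ± 0.187% of its value in knockout and 2.26 ± 0.353% in wild type.

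miR-30c-5p, the product of both miR-30c hairpins, was the most abundant member. Its values were 357709, 261045, 302156 and 293436 in knockout replicates 1, 2, 4 and 5, and 308028, 295350, 390405 and 245454 in wild-type replicates 1 to 4. The groups overlapped, with wild-type replicate 3 highest and wild-type replicate 4 lowest. It ranked between 9 and 11 among all miRNAs of a library and held 48.7 ± 1.91% of the 5p members' values in knockout and 48.3 ± 2.24% in wild type.

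miR-30d-5p was next, at 160656, 138498, 159081 and 154227 in knockout replicates 1, 2, 4 and 5, and 165311, 151355, 182175 and 123847 in wild-type replicates 1 to 4. It ranked between 13 and 18, and again wild-type replicates 3 and 4 gave the extremes. miR-30a-5p was at 104981, 91765, 100872 and 104645 in the knockout replicates, against 119395, 120096, 117735 and 84413 in the wild-type replicates in the same order. All 4 knockout libraries lay below wild-type replicates 1, 2 and 3 and above wild-type replicate 4, so the groups overlapped through that 1 library.

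miR-30e-5p, which shares all but 1 base with miR-30a-5p, was at 59657, 43774, 55309 and 56271 in knockout replicates 1, 2, 4 and 5, and 50680, 63360, 59223 and 40101 in wild-type replicates 1 to 4. The groups overlapped, and wild-type replicate 4 was lowest here too. miR-30b-5p, the least abundant 5p arm, was at 10689, 10378, 10170 and 10607 in knockout and 9146, 10764, 11845 and 12356 in wild type. The 4 knockout values lay within the wild-type range, and wild-type replicate 4 was the highest of the 8 libraries for this arm.

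Among the passenger strands, miR-30a-3p was the most abundant, at 8292, 8269, 7737 and 7916 in knockout replicates 1, 2, 4 and 5, and 9920, 7862, 8717 and 7874 in wild-type replicates 1 to 4. Wild-type replicate 1 was highest, and the groups overlapped. miR-30e-3p was at 5231, 4355, 4832 and 4551 in knockout and 4989, 4155, 5006 and 4762 in wild type, with each group spanning nearly the same range. miR-30c-2-3p averaged 1025 ± 112 in knockout and 1100 ± 86.3 in wild type (SD, n = 4 each).

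The 2 rarest members were miR-30b-3p, at 124.9 ± 16.6 in knockout and 127.8 ± 13.2 in wild type, and miR-30d-3p, at 41.7 ± 8.69 in knockout and 46.5 ± 11.1 in wild type. miR-30d-3p had deposited values of 28 to 73, and its highest and lowest libraries differed 1.82-fold, the widest span of the 10. Its precision is limited by these low values.

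**Figure D1:**
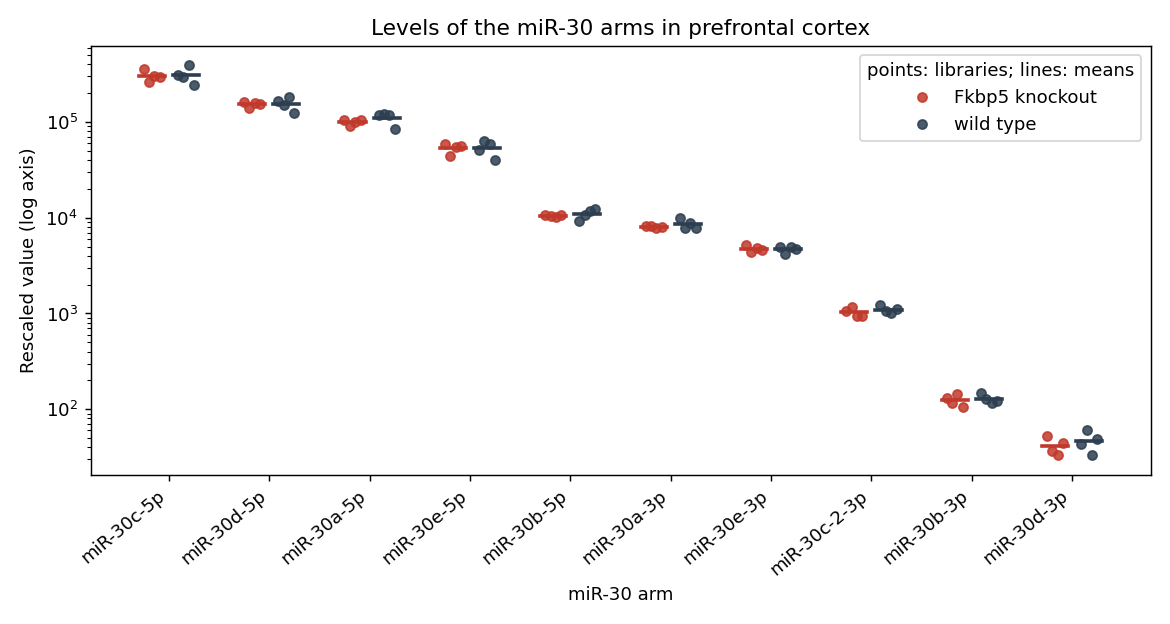
Rescaled values of the 10 miR-30 arms on a log axis, ordered by mean. Points are libraries, Fkbp5 knockout on the left and wild type on the right of each arm, and lines are means of 4. The arms span means of 306700 (miR-30c-5p) to 44.1 (miR-30d-3p), and the genotypes overlap for every arm.

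The order of levels was fixed in nearly every library. The 6 members with a sequence are 22 or 23 bases long, so rescaled values are set side by side without a length correction; differences in how well each sequence is ligated were not tested. miR-30c-5p was above miR-30d-5p in 8 of 8 libraries, by 1.86 to 2.23-fold, miR-30d-5p above miR-30a-5p by 1.26 to 1.58-fold, miR-30a-5p above miR-30e-5p by 1.76 to 2.36-fold, and miR-30e-5p above miR-30b-5p by 3.25 to 5.89-fold. The neighbours miR-30b-5p and miR-30a-3p overlapped, with the first higher in 7 of 8 libraries and the ratio running from 0.922 to 1.57. Below them miR-30a-3p, miR-30e-3p and miR-30c-2-3p kept their order in 8 of 8 libraries, and so did miR-30b-3p and miR-30d-3p.

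The paired miR-30c hairpins left their 3p arms at unequal levels. miR-30c-1-3p was at 159.6, 145.3, 97.5 and 115.4 in knockout replicates 1, 2, 4 and 5, and 125.3, 139.4, 108.6 and 150.9 in wild-type replicates 1 to 4. It made up 11.1 ± 1.43% of the 2 miR-30c 3p arms together in knockout and 10.7 ± 1.34% in wild type, and miR-30c-2-3p, from chromosome 1, was 6.72 to 9.71-fold higher in each of the 8 libraries. Its log2 fold change, knockout minus wild type, was -0.033 ± 0.19 (SE). The share of each locus in miR-30c-5p itself cannot be read from these values.

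The 5p arms of miR-30a, miR-30c, miR-30d and miR-30e were low together in 1 library of each genotype, where miR-30b-5p was not. The first 4 were lowest of all 8 libraries in wild-type replicate 4, at log2 deviations from their 8-library means of -0.31 (miR-30a-5p), -0.31 (miR-30c-5p), -0.31 (miR-30d-5p) and -0.40 (miR-30e-5p). miR-30b-5p stood at 0.21 in that library. Among knockout libraries the same 4 were lowest in replicate 2, at -0.19, -0.22, -0.15 and -0.28 in the same order, where miR-30b-5p was at -0.04. In other libraries the 4 parted. In wild-type replicate 2 miR-30a-5p stood at 0.20 and miR-30e-5p at 0.26, with miR-30c-5p at -0.04 and miR-30d-5p at -0.02, and in wild-type replicate 1 miR-30a-5p stood at 0.19 and miR-30e-5p at -0.06. Over all tested miRNAs the median deviation in wild-type replicate 4 was 0.0077, and 16.4% had their lowest value there.

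**Figure D2:**
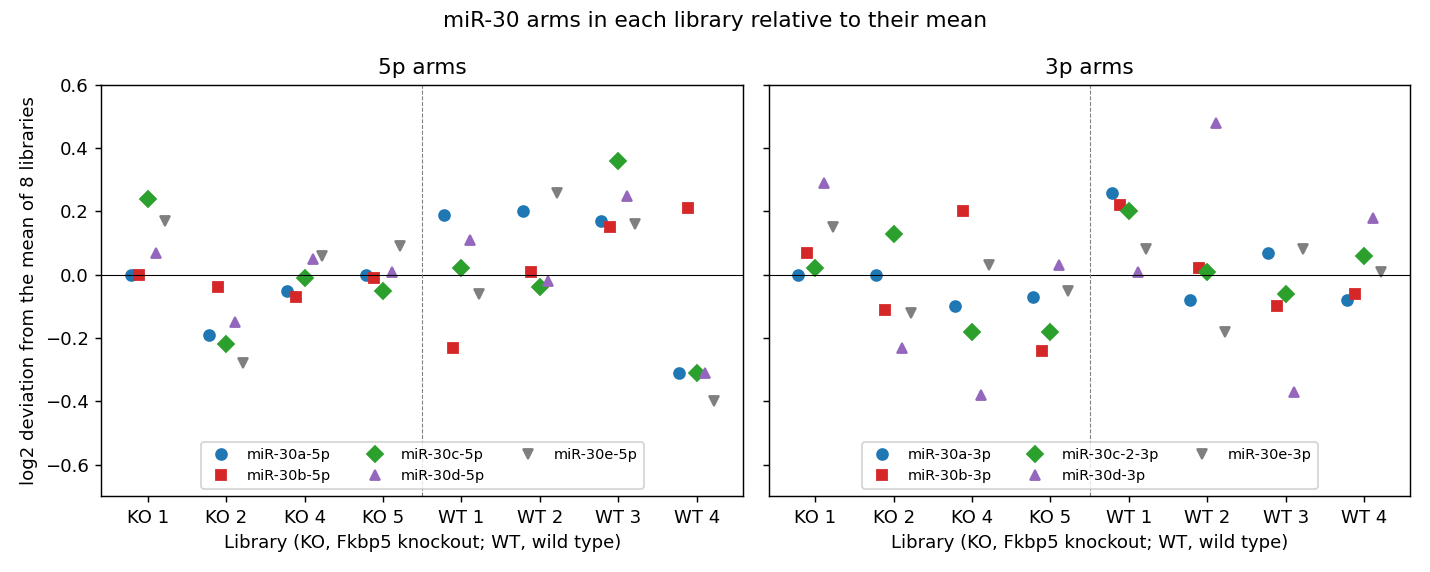
log2 deviation of each arm from its own mean over the 8 libraries, 5p arms on the left and 3p arms on the right. Each point is 1 arm in 1 library, with Fkbp5 knockout (KO) left of wild type (WT) and replicate numbers as labelled. In WT 4 the 5p arms of miR-30a, miR-30c, miR-30d and miR-30e lie between -0.31 and -0.40 and miR-30b-5p lies at 0.21.

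How closely a pair of miRNAs moved together was measured by the SD of the log2 ratio of their levels over the 8 libraries, where a small SD means a steady ratio. It is a description, since all values of a library share its depth and scaling. For the 20910 pairs among 205 miRNAs with a mean level of at least 1000, the median SD was 0.273. It was 0.0939 for miR-30c-5p with miR-30d-5p, which come from different chromosomes, and 0.942% of all pairs had a smaller one. It was 0.105 for miR-30a-5p with miR-30d-5p and 0.138 for miR-30a-5p with miR-30e-5p. miR-30c-5p with miR-30e-5p (0.159) and miR-30a-5p with miR-30c-5p (0.161) were no steadier than miR-30d-5p was with miR-30a-3p (0.154) or miR-30e-3p (0.156). The neighbours miR-30b-5p and miR-30d-5p, 3697 bases apart, had an SD of 0.245, and 39.6% of all pairs were steadier. Their ratio, miR-30b-5p over miR-30d-5p, ran from 0.0553 in wild-type replicate 1 to 0.0998 in wild-type replicate 4.

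Outside the family, the miRNAs with the steadiest ratio to miR-30c-5p were miR-221-5p (SD 0.103), miR-222-3p (0.107) and miR-212-5p (0.134), all less steady than miR-30d-5p. Those closest to miR-30a-3p were miR-100-5p (0.0589), miR-421-3p (0.0632) and miR-151-3p (0.0674). The SD of miR-30a-3p with its own 5p arm was 0.163, so each of these 3 kept a steadier ratio to it than the other product of its hairpin did.

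The comparison of genotypes asks whether loss of Fkbp5 is accompanied by other levels of these miRNAs. All 10 members passed the filter on low values. By limma with Benjamini-Hochberg adjustment over 599 tested miRNAs, 0 of the 10 passed 0.05 and 0 had an unadjusted p under 0.05, where 0% and 4.17% of all tested miRNAs did. For 0 of the 10 did the groups not overlap, against 2% of all tested. The log2 fold changes, knockout minus wild type, ran from -0.15 (miR-30d-3p) to 0.023 (miR-30e-5p) with a median of -0.052, against a median of 0.012 over all tested miRNAs. Above 0 were 2 of the 10 and 53.6% of all tested, but with upper quartile scaling, which moved the median of all miRNAs to 0.067, the 10 split into 5 above and 5 below 0. With 1 library left out the number above 0 ran from 0 (without knockout replicate 1 or 4) to 4 (without wild-type replicate 1 or 3 or knockout replicate 2), and the median lay between -0.116 (wild-type replicate 4 omitted) and -0.0109 (wild-type replicate 1 omitted).

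Over all 8 libraries the 5p arm with the largest difference was miR-30a-5p, at 100566 ± 6156 in knockout and 110410 ± 17360 in wild type (SD, n = 4 each). Its log2 fold change was -0.12 ± 0.12 (SE; limma adjusted p = 0.999). It depended on single wild-type libraries, at -0.0745 without wild-type replicate 1, -0.0762 without replicate 2, -0.0787 without replicate 3 and -0.252 without replicate 4. The last had an unadjusted limma p of 0.0174 and an adjusted p of 0.744. With upper quartile scaling the value was -0.0644. miR-30a-5p was not the 5p arm with the largest difference without wild-type replicate 1 (miR-30b-5p at -0.149) or without wild-type replicate 3 (miR-30c-5p at 0.106). Nor was it without wild-type replicate 2 (miR-30e-5p at 0.113), without knockout replicate 2 (miR-30e-5p at 0.118) or with upper quartile scaling (miR-30e-5p at 0.080). In the 6 libraries numbered 1, 2 and 4, with or without a replicate block, miR-30c-5p was at 0.12 and miR-30a-5p at -0.098. Over all libraries miR-30b-5p was at -0.067 ± 0.11, and it was at -0.0158 without wild-type replicate 4. miR-30c-5p (-0.019 ± 0.14), miR-30d-5p (-0.012 ± 0.12) and miR-30e-5p (0.023 ± 0.15) changed sign with the library left out, so no direction is given for them.

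The 3p arms gave -0.088 ± 0.11 (miR-30a-3p), -0.10 ± 0.12 (miR-30c-2-3p), -0.037 ± 0.15 (miR-30b-3p), -0.15 ± 0.23 (miR-30d-3p) and 0.0049 ± 0.11 (miR-30e-3p). With 1 library left out, miR-30d-3p was at -0.283 when wild-type replicate 3 was omitted and at -0.0132 when wild-type replicate 2 was. The extremes of miR-30a-3p were -0.134 (wild-type replicate 4 omitted) and -0.0117 (wild-type replicate 1 omitted), and those of miR-30c-2-3p were -0.166 (knockout replicate 2 omitted) and -0.0498 (wild-type replicate 1 omitted). miR-30b-3p and miR-30e-3p changed sign with the library left out, so no direction is given for them. The 95% interval of the difference lay within a 2-fold change in either direction for 10 of the 10 members and within 1.5-fold for 9, against 86.8% and 57.8% of all tested miRNAs. The exception at 1.5-fold was miR-30d-3p, from -0.65 to 0.36. The interval of miR-30c-5p was -0.33 to 0.29 and that of miR-30a-5p was -0.39 to 0.15, so differences within these bounds are not excluded. The SD between libraries was smaller in knockout than in wild type for 8 of the 10 members and for 68.6% of all tested miRNAs.

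**Figure D3:**
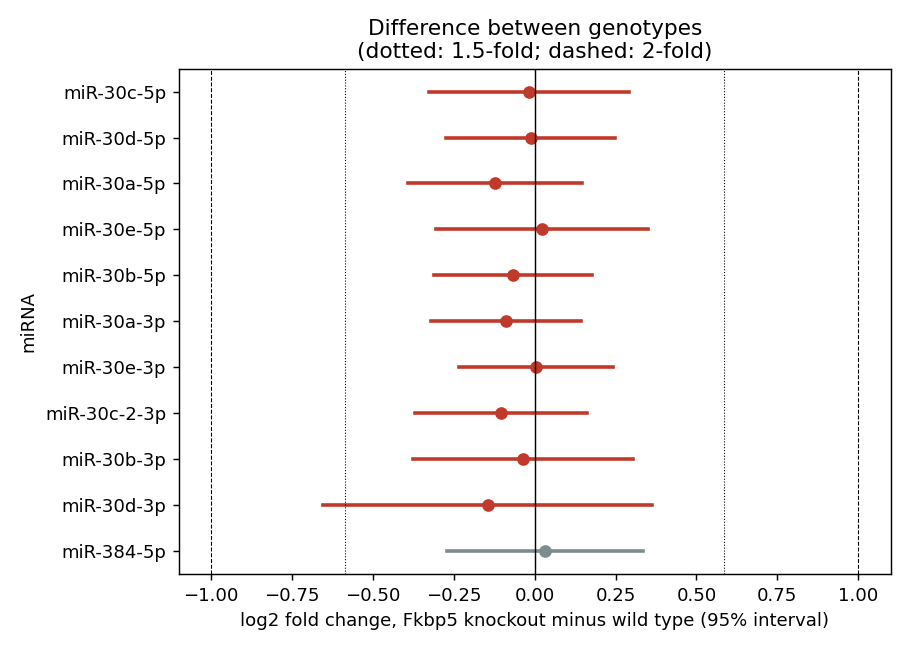
log2 fold change of each arm, knockout minus wild type, with its 95% interval from limma (n = 4 each), red for the 10 miR-30 arms and grey for miR-384-5p. Every interval includes 0, and only that of miR-30d-3p reaches past the dotted line at 1.5-fold.

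miR-384-5p, which carries the 5p seed of the family but comes from the X chromosome, was at 8137, 8582, 9132 and 9603 in knockout replicates 1, 2, 4 and 5, and 7730, 11071, 9140 and 7148 in wild-type replicates 1 to 4. The groups overlapped, and wild-type replicate 4 was lowest, as for 4 of the 5p arms. Its log2 fold change was 0.033 ± 0.14 (SE; limma adjusted p = 0.999). It added 1.42 ± 0.179% to the summed 5p members and itself in knockout and 1.36 ± 0.246% in wild type.

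Other abundant families gave no call either. The 5p arms of let-7 had 5 of 8 above 0 and a median log2 fold change of 0.0064, miR-26 0 of 2 and -0.045, miR-181 4 of 4 and 0.098, and the 3p arms of miR-29 0 of 3 and -0.072. In each of these lists 0 passed the limma threshold and 0 had an unadjusted p under 0.05. Beside the low miR-30 values of wild-type replicate 4, the summed let-7 5p arms were also lowest there, narrowly (4770000, the other libraries 4811000 to 5987000). So were the miR-26 5p arms (1648000, the other libraries 1674000 to 1833000). The summed miR-29 3p arms were 2nd highest of the 8 libraries there (111400) and the miR-181 5p arms 5th highest (152200). The summed 3 red blood cell markers (miR-451a, miR-144-3p and miR-486a-5p) were at their highest there (5251, the other libraries 3042 to 4878). The summed 3 striated muscle markers (miR-1a-3p, miR-133a-3p and miR-206-3p) were at their lowest there (13500, the other libraries 13950 to 19840). Other marker lists were not at an extreme there. From the highest library, the summed neuron markers ranked 2nd, microglia and leukocyte 3rd, and endothelium and smooth muscle 3rd. Epithelium and olfactory bulb ranked 5th and oligodendrocyte 7th. By genotype, 3 of 5 neuron markers were above 0 (median log2 fold change 0.054) and 2 of 4 microglia and leukocyte markers (-0.17). So were 1 of 3 red blood cell (-0.11) and 1 of 3 striated muscle markers (-0.12). In the epithelium and olfactory bulb list 0 of 4 were (-1.07), as in the oligodendrocyte (-0.18) and endothelium lists (-0.10). An unadjusted limma p under 0.05 was held by 1 oligodendrocyte and 1 endothelium marker, and 0 passed the threshold. The part of these cells in the miR-30 values was not tested. In bulk tissue fewer cells of a type and less RNA per cell cannot be told apart.

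The share kept by each arm of a hairpin was measured as the 5p value over the 3p value of the same library, which needs no scaling between libraries. In the family the 5p arm was the higher one for each of the 5 hairpin names in each of the 8 libraries, as for 56.6% of 159 hairpin names by mean ratio. The size of the excess differed widely. miR-30d-5p was 3010, 3710, 4730 and 3470-fold above its 3p arm in knockout replicates 1, 2, 4 and 5, and 3750, 2500, 5360 and 2510-fold in wild-type replicates 1 to 4, the 4th highest ratio of the 159. miR-30c-5p was 200 to 293-fold above its 3p arms (miR-30c-1-3p and miR-30c-2-3p summed) in knockout and 196 to 348-fold in wild type.

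miR-30b-5p exceeded its 3p arm 70.3 to 99.1-fold in knockout and 62.2 to 102-fold in wild type. The miR-30a and miR-30e hairpins, whose 5p arms differ by 1 base and whose 3p arms differ by 1, had nearly equal ratios. The arms of miR-30b and miR-30d had no sequence here to compare. miR-30a-5p was 12.7, 11.1, 13.0 and 13.2-fold above miR-30a-3p in knockout replicates 1, 2, 4 and 5, and 12.0, 15.3, 13.5 and 10.7-fold in wild-type replicates 1 to 4. miR-30e-5p was 11.4, 10.1, 11.4 and 12.4-fold above miR-30e-3p in knockout and 10.2, 15.2, 11.8 and 8.42-fold in wild type. The close neighbours Mir30b and Mir30d thus differed widely, with mean ratios of 84.8 and 3510. miR-384-5p was 2.4 to 3.21-fold above miR-384-3p over the 8 libraries.

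**Figure D4:**
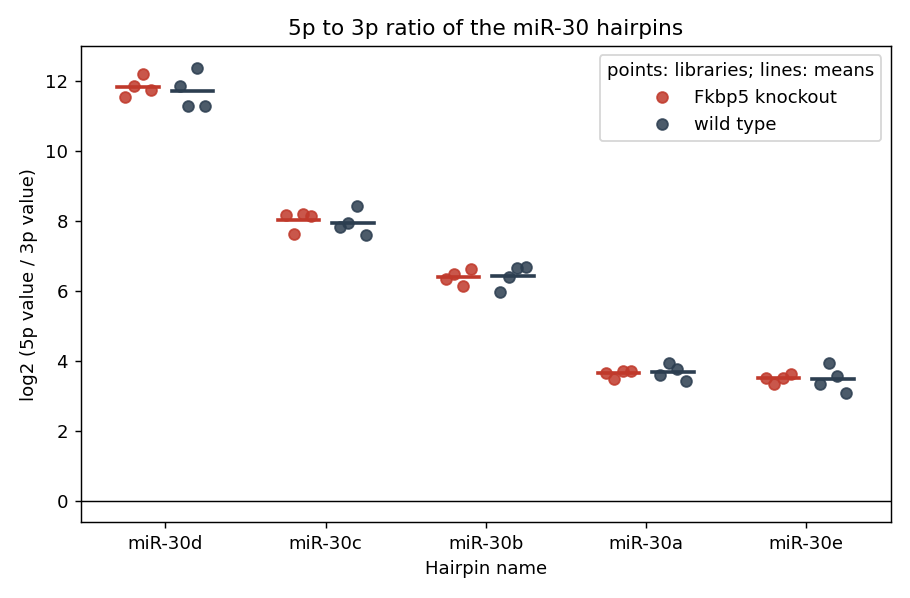
log2 ratio of 5p to 3p values for each miR-30 hairpin name. Points are libraries, Fkbp5 knockout on the left and wild type on the right, lines are means of 4, and 0 marks equal arms. Mean log2 ratios run from 11.8 (miR-30d) to 3.49 (miR-30e), and the genotypes overlap for every hairpin name.

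By genotype the log2 ratio changed by -0.034 ± 0.14 for miR-30a, -0.030 ± 0.20 for miR-30b, 0.078 ± 0.19 for miR-30c, 0.14 ± 0.23 for miR-30d and 0.018 ± 0.17 for miR-30e (knockout minus wild type, SE). With limma and Benjamini-Hochberg adjustment over 159 hairpin names, 0 of the 5 passed 0.05 and 0 had an unadjusted p under 0.05, against 0% and 3.14% of all. The groups overlapped for all 5 and failed to overlap for 0.629% of the 159. The 95% interval excluded a 1.5-fold change of the ratio for 4 of the 5, the exception being miR-30d (-0.37 to 0.64). Each of the 5 changes turned its sign when 1 library or another was left out.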

How the data were processed

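Small RNA from prefrontal cortex was column-purified, made into libraries with a NEXTflex kit and sequenced on a HiSeq 2500, per the labels' protocols. The submitters' processing notes name cutadapt 1.11, Bowtie 1.1.2, HTSeq 0.6.1p1, edgeR and build mm10, with settings not given in the sources used here. Per the file headers the deposited values are counts normalized by the authors. They are whole numbers and the method is not stated, so the deposited values were treated as a score with no fixed unit, no count model was run, and depth in reads is unknown.

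Libraries were rescaled by a trimmed mean of log ratios (30% of ratios and 5% of levels trimmed at each end). A miRNA was tested if it reached 10, scaled to the median library, in 4 libraries and 15 in all, which left 599. log2(value + 1) was compared with limma 3.58.1 (R 4.3.3) with a mean-variance trend; fold changes on this scale are understated for low miRNAs. Arm ratios used 0.5 added to each arm, both at a mean of at least 20; numbered hairpin copies were summed for 18 names. On simulated data with 200 of 599 miRNAs changed, limma recovered 63.1% of 1.5-fold and 86.3% of 2-fold changes. With 40 of 159 ratios changed it recovered 55% and 85.8%. The adjusted threshold is harder to pass where fewer change, and recovery in that setting was not simulated.

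The members and lists were chosen with earlier results of these data known. The named miRNAs are the members, other miR-30 products, miRNAs with a member's seed, and for the most abundant 5p and 3p member the 3 miRNAs outside the family with the smallest SD of the log2 ratio. Sequences are from RefSeq, hairpin places from GENCODE M21 (GRCm38, the assembly of mm10). Other scalings, filters, pseudocounts, a replicate block and leaving out single libraries were alternatives.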

Additional observations from a re-analysis of the deposited data

Results flagged for a closer look

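In 38 groups of 4 libraries examined (levels, arm ratios and the family's share), 2 had one library set well apart from its group, and about 1.9 such groups come by chance. miR-30a-5p had a rescaled value of 84413 in wild-type replicate 4, against 117740 to 120100 in the other wild-type libraries. The log2 ratio of miR-30c-5p to its summed 3p arms was 7.64 in knockout replicate 2, against 8.13 to 8.19 in the other knockout libraries.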

How the results depend on the processing

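The number of miR-30 arms past the threshold was 0 in all 19 alternatives, and that of miR-30 hairpin names 0 in all 15. Of 188 alternative values of the 10 log2 fold changes, 25 changed sign, and of 74 for the arm ratios 11 did. The smallest limma adjusted p was 0.744 for the levels of the members and 0.684 for the arm ratios. Signs turned with upper quartile scaling for miR-30c-5p (0.039), miR-30d-5p (0.045), miR-30b-3p (0.020) and miR-30c-1-3p (0.024), with library totals for miR-30d-5p (0.0059), and in the values as deposited for miR-30e-3p (-0.0015); all are close to 0 and the cause was not tested. With 1 library left out the log2 fold changes ran from -0.131 to 0.106 for miR-30c-5p, -0.124 to 0.0754 for miR-30d-5p, -0.114 to 0.118 for miR-30e-5p, -0.116 to 0.0356 for miR-30b-3p, -0.0559 to 0.0447 for miR-30e-3p, -0.142 to 0.0864 for miR-30c-1-3p and -0.0654 to 0.152 for miR-384-5p. Arm ratio changes ran from -0.118 to 0.0518 for miR-30a, -0.185 to 0.0555 for miR-30b, -0.0371 to 0.239 for miR-30c, -0.00603 to 0.361 for miR-30d and -0.117 to 0.169 for miR-30e, and the difference in the family's share from -0.286 (without wild-type replicate 4) to 0.125 percentage points (without wild-type replicate 3).

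Over all miRNAs 25 had an unadjusted p under 0.05. With more or fewer miRNAs tested this was 51 (no filter) or 14 (a filter at 10 per 1000000), and it was 9 in the values as deposited (cause not tested) and 18 to 40 over the fits that omit a library (40 when wild-type replicate 3 was omitted). The labels do not say that replicate numbers pair libraries. After the mean of its genotype was subtracted from each miRNA, same-numbered libraries had correlations of 0.0652 (number 1), -0.0385 (number 2) and 0.132 (number 4). The wild-type libraries that matched these knockout libraries best were replicates 3, 4 and 4. With a replicate block for numbers 1, 2 and 4 there were 4 miRNAs past the threshold, none of them a miR-30 arm, and 45 unadjusted, against 40 in the same 6 libraries without the block. In both of these fits miR-30c-5p was at 0.12, miR-30d-5p at 0.071 and miR-30b-3p at 0.0028. At 10 per 1000000 miR-30b-3p and miR-30d-3p were not tested, and a minimum mean of 100 in each arm left out the ratio of miR-30d.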
